A study of Mus musculus with 6 samples.

Results

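The 10 genes described here are 4 stefin A genes (*Stfa1*, *Stfa2*, *Stfa3* and *Stfa2l1*) and 6 genes of neutrophil granules and cytosol (*S100a8*, *S100a9*, *Ngp*, *Camp*, *Ltf* and *Lcn2*), out of 54532 genes in the table. The list was drawn up because *Stfa2* was lower in cKO than in Ctrl ovaries, to ask whether other neutrophil genes were lower with it and whether they followed haemoglobin. The difference in *Stfa2* therefore chose the list and is given as a description with no test. RNA came from whole ovaries of C57BL/6 mice at 16.5 days post-coitus (dpc), in 3 Ctrl and 3 cKO libraries. The labels give the Ctrl genotype as wild type, and no source used here says whether Ctrl mice carried a floxed allele or the transgene. The cKO mice are *Stra8-GFPCre Srsf1* Fl/Fl, in which a Cre transgene under *Stra8* removes exons of *Srsf1* in germ cells, so the recombination is not directed at blood cells or at the somatic cells of the ovary. The number of ovaries in a library is likewise not stated there.

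Stefins A are small cytosolic inhibitors of cysteine cathepsins, and mice carry a cluster of stefin A genes that are expressed in neutrophils and in stratified epithelia. Neutrophils build their granules in a fixed order. Promyelocytes make the primary granules, which hold myeloperoxidase and serine proteases, later precursors make the secondary granules, which hold lactoferrin, cathelicidin, neutrophilic granule protein and lipocalin 2, and the gelatinase granules follow. S100A8 and S100A9 form calprotectin, the main cytosolic protein of the mature cell. In the fetus these cells are made chiefly in the liver and reach other organs with the blood.

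All 10 genes, like 17180 genes in all, reached the minimum set for testing, a mean of 0.5 FPKM (reads on a gene scaled to its length and to the library size). The reads on genes ranged from 14212164 to 16784241 per library. *Srsf1* itself was at 80.2, 70.1 and 63.1 FPKM in Ctrl 1, 2 and 3 and at 32.4, 37.0 and 36.4 FPKM in cKO 1, 2 and 3, so the groups did not overlap and followed their labels. The summed FPKM of 6 ovarian somatic markers, *Foxl2* and *Wnt4* among them, was between 301 and 429 in all libraries. The extraction text of the labels names retina, but the 6 retina markers summed to 1.00 to 2.24 FPKM and *Crx* was listed at 0 in every library. The share of reads on haemoglobin genes was 1.69% for Ctrl 1, 0.609% for Ctrl 2 and 0.388% for Ctrl 3, against 0.129% for cKO 1, 0.797% for cKO 2 and 0.747% for cKO 3, so that Ctrl 1 held the most and cKO 1 the least.

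The stefin A genes lie together on chromosome 16 of GRCm38. *Stfa2l1* (ENSMUSG00000059657) occupies bases 36156811 to 36161953 on the plus strand and *Stfa1* (ENSMUSG00000071562) bases 36276951 to 36285373 on the same strand. *Stfa2* (ENSMUSG00000022902) runs from 36403992 to 36408457 and *Stfa3* (ENSMUSG00000054905) from 36450537 to 36455392, both on the minus strand. The genes are related in sequence, and *Stfa2* and *Stfa2l1* are near copies, which bears on how reads are assigned to them. The coding sequences of *Stfa2* and *Stfa2l1* were identical at 298 of 309 aligned bases (96.4%), those of *Stfa2* and *Stfa3* at 80.9% and those of *Stfa1* and *Stfa2* at 74.4%. The first 90 coding bases, taken from GENCODE M21 transcripts, show where the 3 closest relatives part, with capitals marking each base that differs from *Stfa2*, 6 in *Stfa2l1* and 14 in *Stfa3*.
Stfa2: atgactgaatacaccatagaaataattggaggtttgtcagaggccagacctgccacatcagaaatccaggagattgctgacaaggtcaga
Stfa2l1: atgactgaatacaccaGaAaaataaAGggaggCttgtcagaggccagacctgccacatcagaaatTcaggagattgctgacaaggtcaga
Stfa3: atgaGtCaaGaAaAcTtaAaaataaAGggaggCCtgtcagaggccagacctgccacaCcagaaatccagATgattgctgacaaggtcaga

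Of the windows of 75 bases along the *Stfa2* transcript, 5.79% also occurred in *Stfa2l1*. The shared part was 7.83% for *Stfa2l1*, 10.7% for *Stfa1* (with its neighbour *BC100530*) and 0% for *Stfa3* and the 6 granule genes. No window of 150 bases was shared by any of the 10 genes. The study's methods give paired-end reads of 150 bases, a length at which exact windows were not shared. Whether shorter or mismatched alignments affected the counts of *Stfa1*, *Stfa2* and *Stfa2l1* was not tested.

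The 6 granule genes lie elsewhere. *S100a8* (ENSMUSG00000056054, chromosome 3, 90668978 to 90670035, plus strand) and *S100a9* (ENSMUSG00000056071, 90692632 to 90695721, minus strand) are neighbours. *Camp* (ENSMUSG00000038357, 109847379 to 109849617, minus strand), *Ngp* (ENSMUSG00000032484, 110419747 to 110423012, plus strand) and *Ltf* (ENSMUSG00000032496, 111019271 to 111042767, plus strand) share a stretch of chromosome 9. *Lcn2* (ENSMUSG00000026822) is on chromosome 2 from 32384633 to 32388252 on the minus strand. No annotated gene overlapped any of the 10.

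C/EBP factors and PU.1 are transcription factors of the granulocyte lineage, so the 250 bases before each start site (RefSeq, GRCm38.p6) were searched on both strands for the C/EBP-like letters TTNNGNAA or TTNCNNAA and the PU.1-like letters GAGGAA or TTCCTC. The C/EBP-like letters were present in 8 of the 10 promoters, against 36.8% of 32851 mouse promoters. The PU.1-like letters were present in 7 of 10, against 23.3%, and both in 6 of 10, against 8.87%. *Camp* had neither, *Stfa3* had no C/EBP-like match, and *S100a9* and *Ngp* had no PU.1-like match. The matches describe letters and not bound sites. The windows of *Stfa1*, *Stfa2*, *S100a8*, *Ngp*, *Camp*, *Ltf* and *Lcn2* held bases of annotated exons, and that of *Lcn2* lay within its annotated gene. The promoters of *Stfa3* (chr16:36455393-36455642, minus strand), *Stfa2l1* (chr16:36156561-36156810, plus strand) and *S100a9* (chr3:90695722-90695971, minus strand), the members whose window held no annotated exon, are shown to compare a pair of related stefin promoters with an unrelated one, with matches in capitals.
Stfa3: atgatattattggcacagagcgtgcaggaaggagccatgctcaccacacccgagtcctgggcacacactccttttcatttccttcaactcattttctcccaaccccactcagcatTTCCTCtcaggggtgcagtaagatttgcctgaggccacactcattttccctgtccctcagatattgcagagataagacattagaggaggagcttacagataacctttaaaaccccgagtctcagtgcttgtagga
Stfa2l1: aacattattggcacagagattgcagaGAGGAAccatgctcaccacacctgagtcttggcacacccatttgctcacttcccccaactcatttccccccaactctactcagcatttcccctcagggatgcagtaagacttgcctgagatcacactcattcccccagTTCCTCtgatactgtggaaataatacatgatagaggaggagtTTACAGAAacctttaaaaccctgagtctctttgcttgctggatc
S100a9: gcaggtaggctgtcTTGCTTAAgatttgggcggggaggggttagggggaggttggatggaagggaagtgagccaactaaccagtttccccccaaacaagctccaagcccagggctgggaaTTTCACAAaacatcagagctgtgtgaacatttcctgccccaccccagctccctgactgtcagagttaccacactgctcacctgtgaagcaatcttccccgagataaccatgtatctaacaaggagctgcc

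Levels of all 4 stefins were highest in Ctrl 1, and only *Stfa2* and *Stfa3* had every cKO library below every Ctrl library. *Stfa2* was at 24.5, 8.92 and 5.96 FPKM in Ctrl 1, 2 and 3 and at 1.79, 5.69 and 0.897 FPKM in cKO 1, 2 and 3. The gap between the groups was narrow, because cKO 2 lay just under Ctrl 3, while cKO 3 rested on 6 reads. Means were 13.1 ± 9.96 FPKM in Ctrl and 2.79 ± 2.55 FPKM in cKO (SD, n = 3 each), 4.70-fold lower in cKO, or 2.66-fold lower without Ctrl 1.

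*Stfa3*, the stefin with no shared windows of 75 bases, was at 31.2, 10.8 and 7.78 FPKM in Ctrl and at 4.55, 6.94 and 3.25 FPKM in cKO. Here too cKO 2 was nearest to Ctrl 3. The means of 16.6 ± 12.8 and 4.91 ± 1.87 FPKM differed 3.38-fold, and 1.89-fold without Ctrl 1. *Stfa1* was at 14.5, 10.5 and 3.95 FPKM in Ctrl and at 7.65, 5.12 and 3.57 FPKM in cKO, so that Ctrl 3 lay among the cKO libraries. *Stfa2l1*, the closest copy of *Stfa2*, was at 23.7, 8.70 and 4.24 FPKM in Ctrl and at 5.56, 6.12 and 5.21 FPKM in cKO. Its cKO libraries were nearly level and all above Ctrl 3, which was the lowest of the 6.

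*S100a9* and *S100a8*, the calprotectin subunits, were the most abundant of the 10. *S100a9* was at 127, 38.6 and 30.6 FPKM in Ctrl and at 23.7, 24.8 and 16.9 FPKM in cKO, and *S100a8* was at 74.8, 23.8 and 17.2 FPKM in Ctrl and at 12.7, 13.6 and 16.0 FPKM in cKO. Neither overlapped between groups, although *S100a8* in cKO 3 came close to Ctrl 3. The means were 3.01-fold lower in cKO for *S100a9* and 2.74-fold lower for *S100a8*, and 1.59-fold and 1.45-fold lower without Ctrl 1.

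The secondary granule genes did not overlap between groups either. *Ngp*, a cystatin-related granule protein, was at 52.7, 15.3 and 15.8 FPKM in Ctrl and at 12.1, 5.51 and 5.94 FPKM in cKO, with Ctrl 2 and Ctrl 3 level and above cKO 1. *Ltf*, which encodes the iron-binding lactoferrin, was at 11.7, 5.76 and 2.95 FPKM in Ctrl and at 2.79, 2.06 and 0.959 FPKM in cKO. *Camp*, the cathelicidin antimicrobial peptide, was at 13.5, 4.16 and 5.21 FPKM in Ctrl and at 2.82, 2.36 and 4.09 FPKM in cKO. The smallest gaps were those of *Camp* between Ctrl 2 and cKO 3 and of *Ltf* between Ctrl 3 and cKO 1. *Lcn2*, the siderophore-binding lipocalin 2, was at 8.62, 2.66 and 2.27 FPKM in Ctrl and at 1.70, 1.43 and 0.993 FPKM in cKO. Mean levels were 3.55-fold lower in cKO for *Ngp*, 3.52-fold for *Ltf*, 3.28-fold for *Lcn2* and 2.46-fold for *Camp*, and without Ctrl 1 they were 1.98-fold, 2.25-fold, 1.79-fold and 1.52-fold lower.

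The order of the libraries was much the same from gene to gene. Ctrl 1 was highest for 10 of the 10 genes, at 2.0 (*Stfa1*) to 3.69 (*S100a9*) times the mean of the other Ctrl libraries. Ctrl 2 came second for 8 genes and Ctrl 3 for 2 (*Ngp* and *Camp*). cKO 3 was lowest for 6 genes. Summed over the 10 genes, the level was 383, 129 and 96.0 FPKM in Ctrl 1, 2 and 3 and 75.3, 73.6 and 57.8 FPKM in cKO 1, 2 and 3. The 6 germ cell markers summed to 114, 219 and 420 FPKM in Ctrl and to 533, 207 and 623 FPKM in cKO, lowest in Ctrl 1, where the 10 genes were highest, and highest in cKO 3, where their sum was lowest. Of these markers *Dazl* (log2 fold change 1.6, SE 0.61) and *Dppa3* (1.34, SE 0.50) were higher in cKO past an unadjusted limma p of 0.05, as were 2.68% of all genes tested, and neither passed after adjustment (limma adjusted p = 0.978). The part of germ cell content in the levels of the 10 genes was not tested.

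**Figure D1:**
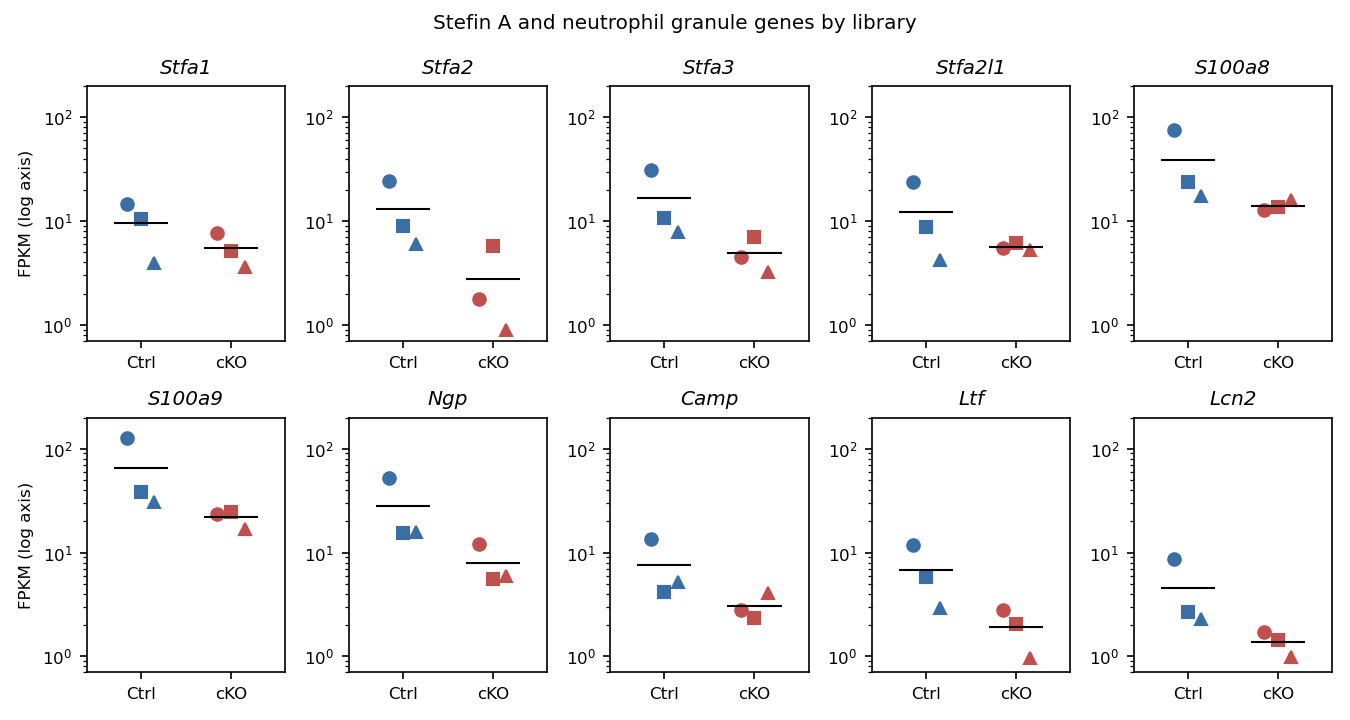
FPKM of each of the 10 genes (log scale) in the 6 libraries, Ctrl in blue and cKO in red, with circles, squares and triangles for replicates 1, 2 and 3 and a line at the group mean. Ctrl 1 is the highest point for every gene, and only *Stfa1* and *Stfa2l1* overlap between groups.

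In all, 8 of the 10 genes had every cKO library below every Ctrl library, which held for 4.10% of the 17180 genes tested. Differences were tested with limma on log2(FPKM + 1), a scale that understates the change of low genes. Of the 9 genes other than *Stfa2*, 6 passed an unadjusted p of 0.05, all lower in cKO, where 1.75% of all genes tested were lower past that limit. None of the 9 passed after Benjamini-Hochberg adjustment over all genes, with an adjusted p of 0.978 for each. By limma, 0 of the 17180 genes passed the adjusted limit and 761 (4.43%) the unadjusted one. By voom, run on the recovered whole reads, 0 genes passed after adjustment and 693 (4.03%) before it, with 6 of the 9 among them. Since *Stfa2* was picked from this same contrast, these shares are given beside the counts and nothing is read from them. In whole ovaries, fewer cells of a type and less RNA per cell cannot be told apart.

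*Ngp* had the largest estimated log2 fold change of the 9, at -1.54 (SE 0.51, 95% interval -2.75 to -0.33). *Stfa3* followed at -1.39 (SE 0.49), *Ltf* at -1.30 (SE 0.45) and *S100a9* at -1.27 (SE 0.51). *Lcn2* was at -1.05 (SE 0.41) and *Camp* at -0.94 (SE 0.39), and these 6 genes were the ones past the unadjusted limit. *S100a8* missed it at -1.11 (SE 0.49, 95% interval -2.29 to 0.06), although its groups did not overlap. The intervals of *Stfa1*, -1.67 to 0.43 around -0.62, and of *Stfa2l1*, -1.92 to 0.51 around -0.70, included 0. For *Stfa2* the log2 fold change was -1.88 (SE 0.60). The median over the 9 other genes was -1.11, against -0.01 over all genes tested, and with *Stfa2*, on which the list was chosen, it was -1.19. An exact permutation test (two-sided) of a single gene cannot go below p = 0.1 with 3 libraries against 3, and it gave 0.1 for each of the non-overlapping genes among the 9, 0.3 for *Stfa1* and 0.4 for *Stfa2l1*.

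Much of the size of these differences rested on Ctrl 1. Without that library the 10 genes had a median of -0.60, and 5 of the 9 passed the unadjusted limit (2.22% of all genes were lower past it), with *Camp* and *Ltf* lost and *S100a8* gained. The same 8 genes did not overlap, against 9.04% of all genes with 1 library fewer. Removing cKO 1 left 2 of the 9 past the limit (1.23% of all genes were then lower past it), removing cKO 2 left 1 (6.03%) and removing cKO 3 left 1 (1.08%). The median of the 9 was -1.14, -1.09 and -1.11 in these fits, close to that with all libraries, whereas it was -0.55 without Ctrl 1. Removing Ctrl 2 left 5 (0.949%), while removing Ctrl 3 left all 9 past it (3.66%). With no minimum FPKM, 4 of the 9 passed, without *Camp* and *Lcn2* (1.76% of 33797 genes were lower past the limit). No fold change of the 10 genes turned positive in any of these fits.

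**Figure D2:**
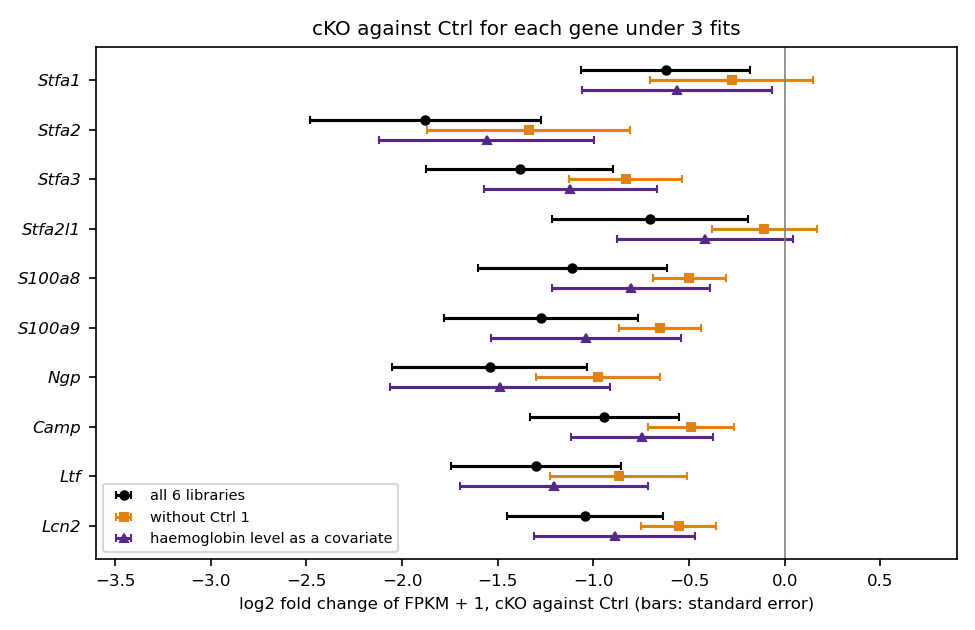
Log2 fold change of cKO against Ctrl on the log2(FPKM + 1) scale for each of the 10 genes, with bars of 1 SE, in the fit to all 6 libraries (black), without Ctrl 1 (orange) and with the haemoglobin level as a covariate (purple). Every estimate lies below 0, from -1.88 for *Stfa2* to -0.62 for *Stfa1* with all libraries, and those without Ctrl 1 lie nearest to 0.

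The genes did not follow haemoglobin through all libraries. Both were highest in Ctrl 1, where summed haemoglobin was at 22510 FPKM. Haemoglobin was at 10318 and 9618 FPKM in cKO 2 and cKO 3 and at 7656 and 4798 FPKM in Ctrl 2 and Ctrl 3. The step between these groups was the reverse of that of the non-overlapping genes. Within the groups, *Stfa2*, *Stfa3*, *S100a9*, *Ltf* and *Lcn2* were in the order of haemoglobin in these libraries. *S100a8* was so in Ctrl only, and *Ngp* and *Camp* were in the reverse order. Over the 6 libraries the correlation of a member with haemoglobin, both as log2(FPKM + 1), ranged from r = 0.28 for *Stfa1* to r = 0.71 for *S100a8*. For the 9 genes other than *Stfa2*, exact permutation p ranged from 0.163 to 0.608, with an adjusted p over the 9 of at least 0.427. Their Spearman's rho ranged from 0.029 to 0.60, with exact permutation p of at least 0.242 and adjusted p of at least 0.903. Without Ctrl 1 and cKO 1, the libraries farthest from the median of haemoglobin, r lay between -0.85 and 0.42 and was below 0 for 8 of the 10 genes. The remaining libraries carry the step between groups, in which the genes were lower and haemoglobin higher in cKO. Deviations from the group means correlated at r = 0.11 to 0.69 over the 6 libraries. For the same deviations without Ctrl 1 and cKO 1, r was 0.41 to 0.96 and below 0 for 0 of the 10 genes, but the group means still included both libraries. The deviations of the kept libraries thus still held a step between groups, and nothing is read from their sign. Without removal of the group means, the sign of r depended on the libraries kept for 8 of the 10 genes.

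The same relation was computed with 7 other red cell genes, *Alas2* among them, and gave r = 0.45 to 0.81 over the 10 genes, with 1 exact permutation p below the unadjusted limit (*S100a8*, 0.0431) and adjusted p over the 9 genes of at least 0.306. With the log2 haemoglobin level as a covariate, a fit added after the values had been seen, 3 of the 9 genes passed the unadjusted limit (*Ngp*, *Stfa3* and *Ltf*), where 2.16% of all genes were lower past it. The median over the 10 genes was then -0.96. In the libraries other than Ctrl 1 and cKO 1, also compared after the values had been seen, 4 passed (*S100a9*, *Ngp*, *Ltf* and *Lcn2*, with 2.44% of all genes lower past the limit). With all 6 libraries and group alone, 6 of the 8 haemoglobin genes tested had a log2 fold change below 0 (median -0.46). None was lower past the limit, where 1.75% of all genes were. *Hbb-y*, an embryonic globin, was higher past it, as were 2.68% of all genes, at 2.10 on the log2 scale (limma adjusted p = 0.978).

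**Figure D3:**
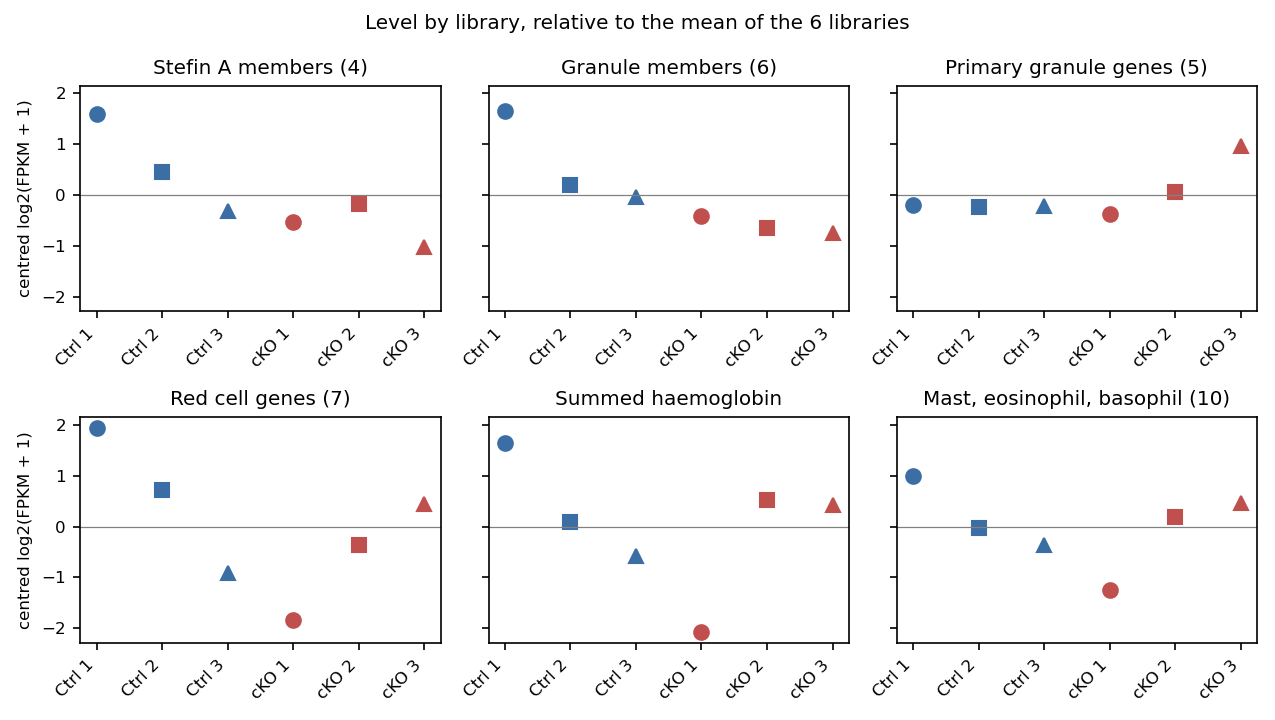
Mean log2(FPKM + 1) per library, centred on each gene's mean over the 6 libraries, for the stefins, the 6 granule members, primary granule genes, other red cell genes, mast cell, eosinophil and basophil genes, and for the summed haemoglobin level. The member groups are highest in Ctrl 1 and lowest in cKO 3, while haemoglobin is lowest in cKO 1 and higher in cKO 2 and cKO 3 than in Ctrl 2 and Ctrl 3.

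Further genes of the stefin cluster were read beside the 4 stefins. *BC100530*, whose coding sequence was 97.9% identical to that of *Stfa1*, was at 32.1, 8.83 and 9.42 FPKM in Ctrl and at 4.58, 7.47 and 5.62 FPKM in cKO, with no overlap (log2 fold change -1.15, SE 0.47, past the unadjusted limit but not so with no minimum FPKM, limma adjusted p = 0.978). *Gm5483* was at 8.20, 2.89 and 1.97 FPKM in Ctrl and at 1.70, 1.5 and 1.51 FPKM in cKO, also without overlap, but missed the limit (-0.88, SE 0.40). *BC117090*, *Gm5416*, *2010005H15Rik* and *Csta1* had between 1 and 12 reads in the 3 cKO libraries together, and the only one of them tested, *2010005H15Rik*, did not pass (-0.53, SE 0.43). It was at 0.730, 2.71 and 0.179 FPKM in Ctrl and at 0.506, 0.653 and 0 FPKM in cKO, with Ctrl 2 highest and Ctrl 3 among the cKO libraries. *BC100530* shared 22.4% of its windows of 75 bases with *Stfa1* or *BC117090*, but none of 150 bases. It overlaps *Gm15845* on the other strand, and the strand setting of the counting is not stated, so its values are uncertain.

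Genes of later granule stages were described next to those of the primary granules, as they separate older from younger neutrophils. Of 10 later granule genes 9 were tested, and 3 were lower in cKO past the unadjusted limit, with none higher and a median log2 fold change of -0.51, where 1.75% of all genes tested were lower past that limit. Of the 3, *Mmp9* and *Cd177* had cKO means of 0.272 and 0.399 FPKM and reached the minimum for testing only through Ctrl, so nothing is read from the count. *Olfm4* was at 3.35, 1.79 and 1.26 FPKM in Ctrl and at 0.895, 0.463 and 0.190 FPKM in cKO (log2 fold change -1.02, SE 0.29). The gelatinase gene *Mmp9* (-0.57, SE 0.22) and *Cd177* (-0.51, SE 0.21), a surface protein of mature neutrophils, were the others, and none of the 3 passed after adjustment (limma adjusted p = 0.978). Without Ctrl 1, *Olfm4* alone of the 9 was past the limit.

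The primary granule genes did not share this order. *Mpo*, myeloperoxidase, was at 0.0974, 0.0541 and 0.134 FPKM in Ctrl and at 0.0567, 1.32 and 3.11 FPKM in cKO, so cKO 2 and cKO 3 were highest. *Elane*, neutrophil elastase, was listed at 0 in all Ctrl libraries and cKO 1, with 1 read in cKO 2 and 29 in cKO 3. *Ctsg*, cathepsin G, had 5, 1 and 3 reads in Ctrl and 0, 0 and 31 in cKO. The 5 primary granule genes summed to 1.96, 2.11 and 1.95 FPKM in Ctrl and to 0.912, 4.10 and 10.3 FPKM in cKO. Thus cKO 3, the library lowest in most of the 10 genes, was the highest in primary granule genes. Both primary granule genes that could be tested had values above 0 (log2 fold change of *Mpo* 0.98, SE 0.46, and of *Prtn3* 0.09, SE 0.29), and neither passed the limit. *Mpo* reached the minimum for testing only through the cKO libraries in which it was high, so its sign was favoured by that filter. The difference between the lists was not tested.

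Of 16 genes of neutrophil identity 8 were tested and 0 passed the unadjusted limit. Of the 8, 5 had a log2 fold change below 0, and the median was -0.10, or 0.09 without Ctrl 1. With no minimum FPKM *Ly6g* passed, lower in cKO, where 1.76% of 33797 genes were lower past the limit. *Ly6g*, a marker of mature mouse neutrophils, was under the minimum, with 12, 8 and 6 reads in Ctrl and 1, 5 and 1 in cKO. *Cxcr2*, a chemokine receptor of mature neutrophils, had 26, 6 and 8 reads in Ctrl and 1, 6 and 2 in cKO. In FPKM every cKO library was below every Ctrl library for both, and for only these 2 of the 16. That held for 3.64% of the 33797 genes. In reads, *Cxcr2* was tied at 6 in Ctrl 2 and cKO 2, and *Ly6g* had 6 in Ctrl 3 against 5 in cKO 2. Nothing is therefore read from this separation. *Csf3r*, the receptor for granulocyte colony-stimulating factor, was at 0.850, 0.650 and 0.856 FPKM in Ctrl and at 0.591, 0.875 and 0.351 FPKM in cKO, which overlap. *Cebpe*, a transcription factor of secondary granule genes, was at 1.45, 2.69 and 1.15 FPKM in Ctrl and at 1.30, 2.35 and 1.87 FPKM in cKO, with no separation between groups.

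**Figure D4:**
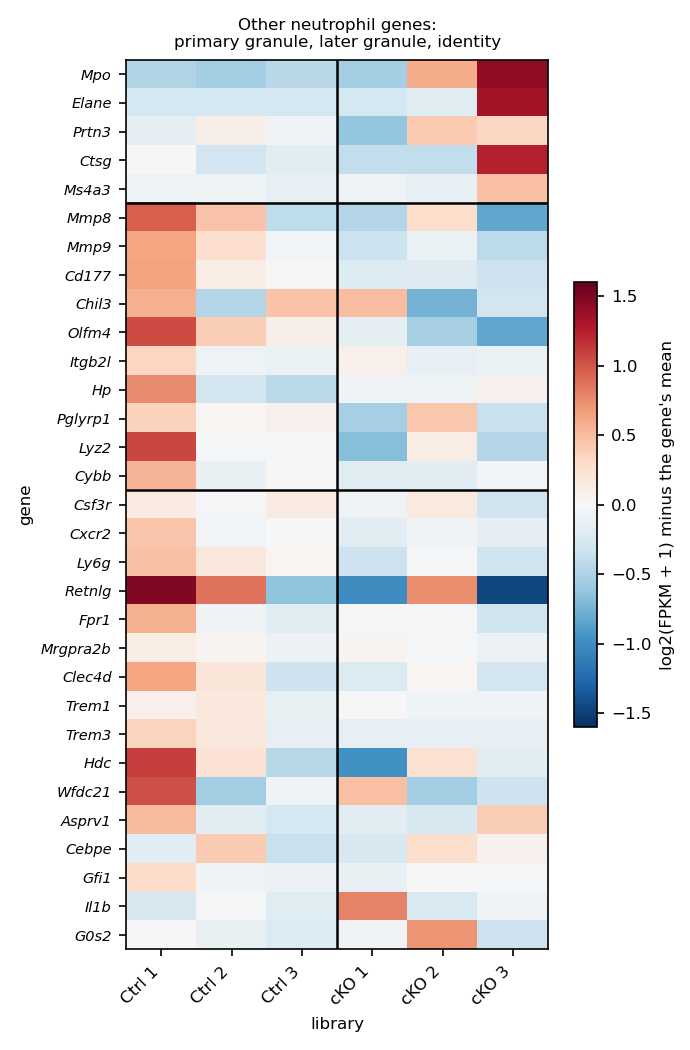
Heat map of log2(FPKM + 1) minus each gene's mean over the 6 libraries (columns) for 5 primary granule genes, 10 later granule genes and 16 neutrophil identity genes (rows). Ctrl 1 is high for most later granule genes, whereas *Mpo*, *Elane* and *Ctsg* are high in cKO 3.

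Markers of other blood cells were read beside these values. General leukocyte genes (8 tested, median log2 fold change -0.11) and macrophage and monocyte genes (12 tested, median -0.21) held 0 genes past the unadjusted limit. General leukocyte genes summed to 43.2, 30.9 and 25.9 FPKM in Ctrl and to 20.1, 38.9 and 28.4 FPKM in cKO, so they too were highest in Ctrl 1. Mast cell, eosinophil and basophil genes summed to 265, 96.7 and 53.3 FPKM in Ctrl and to 7.63, 94.4 and 122 FPKM in cKO. Of these genes 0 of 5 tested passed, with a median log2 fold change of -1.20, or -0.60 without Ctrl 1. The 7 other red cell genes also held 0 past the limit, with a median of -1.06, or -0.46 without Ctrl 1. For the 9 members other than *Stfa2* these medians were -1.11 and -0.55. The general leukocyte and the mast cell, eosinophil and basophil sums were thus highest in Ctrl 1 and lowest in cKO 1, and their part in the differences of the 10 genes was not tested. Of 4 platelet genes tested, *Gp9*, a subunit of the platelet receptor for von Willebrand factor, was lower past the unadjusted limit, with and without Ctrl 1. In these fits 1.75% and 2.22% of all genes tested were lower past it. *Gp9* was at 7.57, 6.38 and 2.34 FPKM in Ctrl and at 1.32, 1.22 and 1.92 FPKM in cKO, with no overlap (log2 fold change -1.27, SE 0.36, limma adjusted p = 0.978). The others did not pass (*Ppbp* 0.58, SE 0.37, *Pf4* 0.02, SE 0.21, and *Itga2b* -0.06, SE 0.18), and the median of the 4 was -0.02. Markers of squamous epithelium, another site of stefin A, summed to 7.33 to 11.2 FPKM in Ctrl and to 8.80 to 12.5 FPKM in cKO.

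The targets and partners of the members were measured as well. Of 9 cathepsin and cystatin genes tested, which include the enzymes that stefins inhibit, 0 passed the limit and the median log2 fold change was -0.25. *Ctsb*, a cathepsin, was at 93.7, 64.1 and 56.0 FPKM in Ctrl and at 45.3, 65.3 and 58.7 FPKM in cKO, which overlap. Of 4 tested receptors and partners of the granule proteins, *Cd36*, a scavenger receptor, was lower past the unadjusted limit (-0.62, SE 0.24, limma adjusted p = 0.978), but not without Ctrl 1, and the others were not. Of all genes tested, 1.75% were lower past that limit.

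Among 3575 genes whose log2(FPKM + 1) ranged over at least 1 between libraries, those most like *Stfa2* over the 6 libraries were *I830127L07Rik* (r = 0.995), *Lgals3* (r = 0.991), *Gm44361* (r = 0.978), *Tstd3* (r = 0.977) and *Mmp9* (r = 0.974). *Stfa3* came next at r = 0.974, and the other members had r from 0.709 (*Camp*) to 0.919 (*S100a9*). Those most like the mean of the 6 granule members, outside that set, were *Gm5483* (r = 0.988), *Gm49550* (r = 0.986), *Cnmd* (r = 0.983), *Gm15816* (r = 0.976) and *Chek2* (r = 0.972). These values describe 6 libraries that share the step between groups and the high values of Ctrl 1.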

How the data were processed

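Polyadenylated RNA of whole ovaries was sequenced as paired-end reads. Per the submitters' processing notes reads were aligned to mm10 (GRCm38) with HISAT2 2.0.5, and the study's methods state that reads per gene were counted with featureCounts. The authors deposited FPKM values, in which reads are divided by gene length and a library size, and took 3 biological replicates per group. Neither the release of the gene annotation nor the strand setting is stated in the sources used here. Scaled back by gene length, 100% of values lay within 0.05 of a whole number of reads, which gave the depth. No per-sample column was left out.

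limma 3.58.1 in R 4.3.3 was run on log2(FPKM + 1) for genes averaging 0.5 FPKM or more, with group as the only term, an intensity trend, two-sided tests and Benjamini-Hochberg adjustment over all 17180 genes. The fit was tested on simulated reads drawn for each gene independently, which do not hold shifts shared by many genes of a library. Python 3.11.15, scipy 1.17.1, pandas 2.3.3 and biopython 1.88 served for permutation tests and sequences.

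Alternatives were other pseudocounts (0.1, 0.5), minima (none, 1), median-ratio scaling, scaling by reads outside haemoglobin, voom on recovered reads, no trend, a replicate block and leaving out each library. Named genes are the 10 members, *Srsf1*, listed genes of the stefin cluster, neutrophils and haemoglobin, the most abundant or past-limit genes of other lists, and the 5 genes most like *Stfa2* and most like the granule members. Members and lists were chosen with earlier results of these data known.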

Additional observations from a re-analysis of the deposited data

How the results depend on the processing

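Of 180 fold changes of the 10 genes compared under the alternatives, 0 changed direction, and of 162 calls of the 9 genes other than *Stfa2*, 131 stayed on their side of the unadjusted limit, 25 were lost and 6 were gained. The count of 6 of 9 genes past the limit became 3 with the haemoglobin level as a covariate, which was chosen after seeing the data, and 4 with no minimum FPKM. Leaving out each library in turn gave between 1 gene (without cKO 2 or without cKO 3) and 9 genes (without Ctrl 3), with 2 without cKO 1. The count over all genes, 761, became 1331 with no minimum FPKM and ranged from 364 (without Ctrl 2) to 2493 (without cKO 2) when a library was left out. voom called 6 of the 9 genes with the summed reads as library size. With the library size implied by FPKM, a setting added after the first voom result was seen, it called 5, without *Camp*, and 724 genes in all, 0 of them after adjustment. With the replicate number as a block, 7 of the 9 genes (with *Stfa1* added) and 681 genes in all passed, but deviations of same-numbered libraries correlated at -0.39, -0.03 and 0.12, so the numbers were not read as pairs. Genes with few reads, such as *Stfa2* with 6 in cKO 3, carry large counting error.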
